A study of Mus musculus with 6 samples.

Results

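The lysosomal genes described here are 36 genes for soluble enzymes, activator proteins and membrane proteins of the lysosome, among them Galc, measured in adult mouse testis. Galc was selected on the difference between the genotypes at 1 of its probe sets in these same arrays, and the other 35 were added for their place in the lysosome. All 36 had at least 1 probe set (a group of short probes that reads 1 transcript) annotated to that gene alone, out of 18193 such genes on the array. Each gene is represented by the probe set with the highest mean over all 6 arrays, called its brightest, and Galc is shown with every probe set. The arrays came from freshly dissected testes of 3 wild-type mice and 3 mice with a DREAM transgene, all adults on the same hybrid background, C57BL/6 x CBA. The transgenic genotype is a DREAM mutant that the labels call constitutively active. Its promoter, the cells that carry it and the number of founder lines are not given in the sources used here. DREAM, encoded by Kcnip3, is a calcium sensor of the neuronal family that binds DNA and represses transcription while free of calcium.

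Lysosomes are acidic compartments in which hydrolases take glycolipids, sugar chains, proteins and cholesterol esters apart, and lipid-specific enzymes often need a small activator protein to reach their substrate. In the testis, Sertoli cells digest the residual cytoplasm shed by spermatids in their lysosomes, and the acrosome of the sperm head holds several of the same enzymes. Male germ cells also carry seminolipid, a sulfated galactolipid. Arsa, arylsulfatase A, removes its sulfate, and Galc, galactosylceramidase, then removes the galactose.

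The values are log2 intensities, on which a difference of 1 is a 2-fold ratio, and differences are transgenic minus wild type. Array medians ran from 5.99 to 6.08. Wild type replicate 2 stood apart on the first principal component (38.9% of the variance), at 42.2 against -23.3 to 5.3 for the other 5 arrays, so results that rest on it are also given without it. The Gapdh control difference between 3' and 5' probe sets, a measure of RNA integrity, was 0.06 to 0.16 on the wild-type and 0.21 to 0.33 on the transgenic arrays. These ranges do not overlap, so RNA integrity and genotype cannot be told apart on these arrays. Spermatid genes that mark this tissue were bright on every array, Prm1 at 14.07 to 14.12 and Tnp1 at 13.80 to 13.95. Kcnip3 read 7.33, 7.11 and 7.18 in wild type and 7.15, 7.30 and 7.36 in transgenic testis (difference 0.06, SE 0.10, limma adjusted p = 0.974). The sources used here do not say if these probes would also detect RNA of the transgene, so they do not check the labels.

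Outside Galc, 0 of the 35 lysosomal genes passed limma's test (adjusted p under 0.05 over all 45037 probe sets), where 0.616% of the 18193 genes passed at their brightest probe set. An unadjusted p under 0.05 was reached by 4 of the 35 (11.4%), Asah1, Glb1, Smpd1 and Ctsk, all higher in transgenic testis, against 7.48% of all genes. In 7 of the 35 (20.0%) every transgenic value lay above every wild-type value, against 6.83% of all genes, and in 0 of the 35 did every transgenic value lie below, against 5.65%. These 7 were Glb1, Hexa, Arsa, Asah1, Smpd1, Ctsk and Ctss. Without wild type replicate 2, a choice made once the values had been seen, the count separated upward was 12 of 35 against 16.9% of all genes, the count separated downward was 2 of 35 (Gla and Lipa) against 11.8%, and 0 of the 35 passed limma's adjusted threshold, where 1.25% of all genes did. The median difference over the 36 genes was 0.045 and over all genes 0.02, with 24 of the 36 above 0 (66.7%) against 56.7% of all genes. The largest difference in size among the 35 was 0.33, and the 95% intervals of 34 of them lay within a 2-fold change either way.

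**Figure D1:**
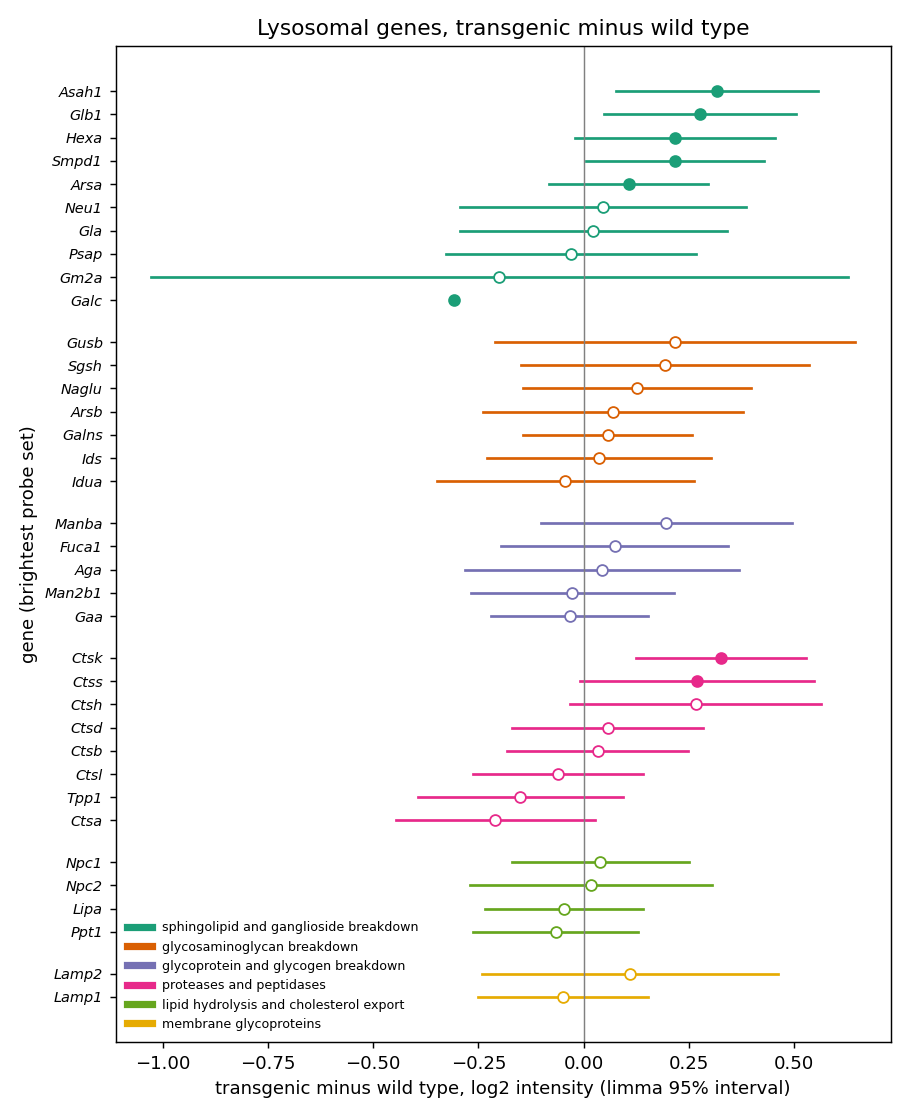
Transgenic minus wild type on the log2 scale for the brightest probe set of each of the 36 genes, coloured by role, with limma's 95% interval as a line (none is drawn for Galc, which was chosen for its difference). Filled circles mark genes whose 3 wild-type and 3 transgenic values do not overlap: 7 lie to the right of 0, and Galc alone lies to the left.

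Galc takes galactose off galactosylceramide, its lyso form psychosine and desulfated seminolipid. Its 3 probe sets all read lower on average in transgenic testis, by very different amounts. Probe set 1452907_at read 7.54, 7.53 and 7.55 in wild type and 5.55, 5.43 and 5.11 in transgenic testis, a difference of -2.18 between 7.54 ± 0.01 and 5.36 ± 0.23 (SD, n = 3). The wild-type values spanned almost nothing and the transgenic ones lay far below all of them. The ratio of intensities is 4.52-fold, which is no exact ratio of transcript, since the transgenic readings are not shown to lie above background. It is the difference for which Galc was chosen, so no test is attached to it or to the other probe sets of the gene. The brightest probe set, 1420547_at, read 8.58, 8.72 and 8.66 in wild type and 8.29, 8.39 and 8.36 in transgenic testis, a difference of -0.31. Its groups also did not overlap, but the ratio was only 1.24-fold. The third, 1449900_at, read 3.70, 3.80 and 3.65 against 3.58, 3.69 and 3.58, a difference of -0.10 at a dim level, and its groups overlapped. Galc on chromosome 12 thus had no single size of difference. Within an array, 1420547_at exceeded 1452907_at by 1.04, 1.19 and 1.11 in wild type and by 2.74, 2.96 and 3.25 in transgenic testis, which restates the differences of -0.31 and -2.18 array by array. Which part of the transcript each probe set reads is not given in the sources used here. With the Gapdh difference as a covariate the differences of 1452907_at and 1420547_at were -1.84 and -0.27, and without wild type replicate 2 they were -2.18 and -0.27. The Gapdh difference was higher on every transgenic array than on any wild-type one, so this covariate cannot separate RNA integrity from genotype.

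**Figure D2:**
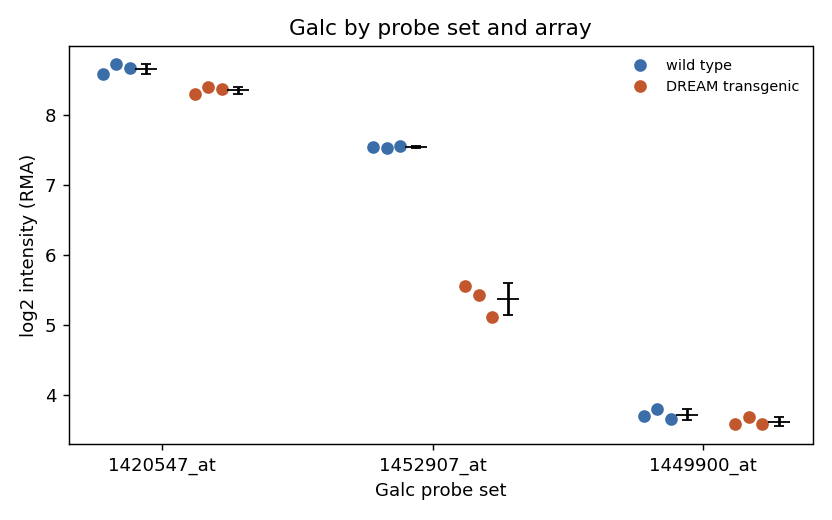
Log2 intensity of the 3 Galc probe sets on each array, wild type in blue and DREAM transgenic in orange, with the group mean and SD (n = 3) as black marks. At 1452907_at the wild-type arrays read 7.53 to 7.55 and the transgenic ones 5.11 to 5.55, while at 1420547_at the groups are 0.31 apart and at 1449900_at they overlap.

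Among the other genes of sphingolipid and ganglioside breakdown, 7 were above 0 and Psap and Gm2a below. Of the 9, 0 passed at the adjusted threshold, 3 reached an unadjusted p under 0.05 and 5 had groups separated upward, where 0.616%, 7.48% and 6.83% of all genes did. Asah1, acid ceramidase, read 8.22, 8.51 and 8.29 in wild type and 8.73, 8.55 and 8.69 in transgenic testis (difference 0.32, SE 0.11, 95% interval 0.08 to 0.56, limma adjusted p = 0.504). The lowest transgenic value was only just above wild type replicate 2. Glb1, the beta-galactosidase that trims gangliosides and keratan sulfate, read 6.81, 7.01 and 6.78 against 7.20, 7.20 and 7.03 (difference 0.28, SE 0.10, limma adjusted p = 0.6). Smpd1, acid sphingomyelinase, read 6.54, 6.73 and 6.55 against 6.85, 6.86 and 6.76 (difference 0.22, SE 0.09, limma adjusted p = 0.728). In all 3 genes wild type replicate 2 was the highest wild-type array, and without it the differences were 0.40, 0.35 and 0.28, still short of the threshold (limma adjusted p = 0.119, 0.18 and 0.263).

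Hexa, the alpha subunit of beta-hexosaminidase A, read 10.12, 10.33 and 10.19 in wild type and 10.59, 10.34 and 10.36 in transgenic testis (difference 0.22, SE 0.11, limma adjusted p = 0.79). Again transgenic replicates 2 and 3 barely cleared wild type replicate 2. Arsa, whose product is the substrate of Galc, read 10.86, 10.82 and 10.86 against 10.99, 10.97 and 10.90 (difference 0.11, SE 0.08, 95% interval -0.08 to 0.30, limma adjusted p = 0.929). The arrays of each group were close together, and the gap between the groups was narrow. Psap, precursor of the saposins, one of which activates Galc, read 9.95, 9.90 and 9.69 against 10.08, 9.64 and 9.73, with overlapping groups (difference -0.03, SE 0.13, limma adjusted p = 0.99). Gla, alpha-galactosidase A, and Neu1, a sialidase, differed by 0.02 and 0.05 with overlapping groups. For Gla this rests on wild type replicate 2, without which the difference was -0.14 with groups separated downward (limma adjusted p = 0.649).

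Gm2a, the activator that lifts gangliosides out of the membrane for Hexa, was the most variable of the 36 genes. Its brightest probe set read 10.44, 9.57 and 10.04 in wild type and 9.43, 10.77 and 9.25 in transgenic testis (difference -0.20, SE 0.37, 95% interval -1.03 to 0.63). High and low values occurred in both groups. Its pooled replicate SD of 0.66 compares with a median of 0.13 over the 36 genes and 0.13 over all genes. Another Gm2a probe set, 1416188_at, read 8.50, 9.16 and 9.02 against 9.30, 9.32 and 9.02 and did not follow that pattern.

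**Figure D3:**
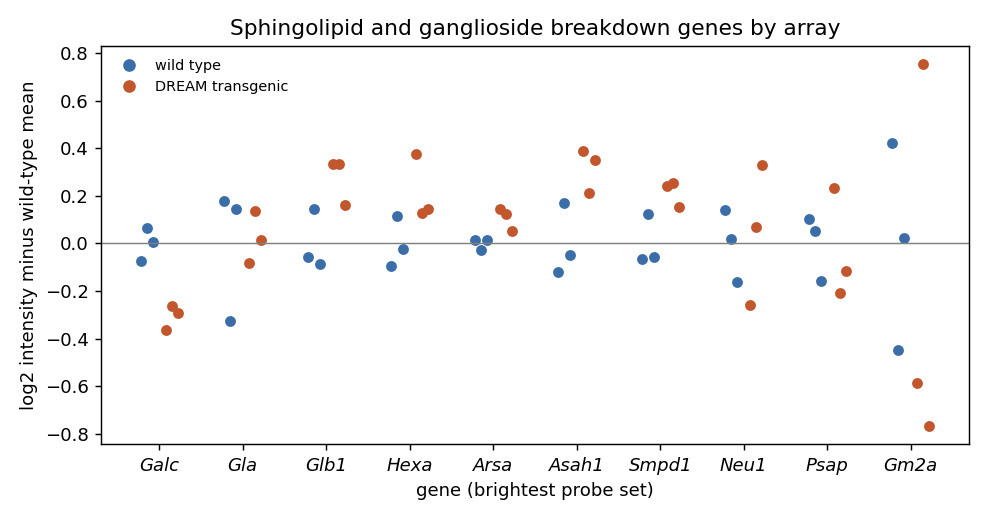
Log2 intensity of the 10 sphingolipid and ganglioside breakdown genes on each array, at the brightest probe set, minus the wild-type mean of that gene, wild type in blue and DREAM transgenic in orange. The 3 transgenic points of Glb1, Hexa, Arsa, Asah1 and Smpd1 lie above every wild-type point of the gene, those of Galc lie below, and Gm2a spreads widely in both groups.

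The stretches of DNA before these genes are shown because DREAM binds the core GTCA and because lysosomal promoters are known for sites of the factor Tfeb, whose preferred site, the CLEAR element, holds the E-box CACGTG and begins with that same core. RefSeq promoters of assembly GRCm38.p6 were given for 30 of the 36 genes, and Aga, Asah1, Ctsb, Ctsh, Galns and Npc1 are not in the table. The 250 bases before the start are printed 5' to 3' on the gene's strand for Galc and for 5 other genes of its pathway, 4 of them among the 7 separated upward. Capitals mark GTCA, its reverse complement TGAC, and CACGTG.
Galc promoter, chr12:98259460-98259709, minus strand: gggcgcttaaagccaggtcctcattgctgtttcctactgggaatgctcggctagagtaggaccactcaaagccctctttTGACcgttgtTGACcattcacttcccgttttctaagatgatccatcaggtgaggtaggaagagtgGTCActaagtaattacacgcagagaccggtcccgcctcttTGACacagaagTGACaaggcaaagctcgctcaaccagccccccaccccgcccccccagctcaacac
Arsa promoter, chr15:89477425-89477674, minus strand: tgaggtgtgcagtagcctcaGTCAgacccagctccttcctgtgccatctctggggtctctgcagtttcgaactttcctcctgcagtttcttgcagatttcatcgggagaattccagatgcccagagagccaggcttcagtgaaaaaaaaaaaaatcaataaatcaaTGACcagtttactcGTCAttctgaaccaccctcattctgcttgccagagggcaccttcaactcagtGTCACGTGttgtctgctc
Gla promoter, chrX:134601006-134601255, minus strand: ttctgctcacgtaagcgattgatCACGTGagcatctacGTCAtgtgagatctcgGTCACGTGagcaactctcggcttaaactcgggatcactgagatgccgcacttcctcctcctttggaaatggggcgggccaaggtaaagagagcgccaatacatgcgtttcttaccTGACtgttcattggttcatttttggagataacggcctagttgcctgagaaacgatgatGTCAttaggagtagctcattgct
Glb1 promoter, chr9:114400828-114401077, plus strand: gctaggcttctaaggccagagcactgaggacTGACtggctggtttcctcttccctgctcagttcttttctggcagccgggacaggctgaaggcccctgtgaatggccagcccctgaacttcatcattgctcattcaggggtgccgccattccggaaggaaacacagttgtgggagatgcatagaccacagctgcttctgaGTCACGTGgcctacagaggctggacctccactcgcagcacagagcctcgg
Hexa promoter, chr9:59539290-59539539, plus strand: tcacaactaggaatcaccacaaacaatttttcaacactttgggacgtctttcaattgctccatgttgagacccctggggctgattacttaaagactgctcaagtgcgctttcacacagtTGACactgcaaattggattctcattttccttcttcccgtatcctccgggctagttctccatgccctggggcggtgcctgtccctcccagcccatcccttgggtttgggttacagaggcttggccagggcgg
Smpd1 promoter, chr7:105554110-105554359, plus strand: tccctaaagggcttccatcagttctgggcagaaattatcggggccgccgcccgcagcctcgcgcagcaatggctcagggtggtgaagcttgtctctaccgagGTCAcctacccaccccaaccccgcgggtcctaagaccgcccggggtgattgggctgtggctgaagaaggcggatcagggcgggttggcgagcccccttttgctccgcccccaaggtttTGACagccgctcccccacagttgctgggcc
The Galc stretch holds 5 GTCA or TGAC cores and 0 copies of CACGTG. Arsa holds 1 GTCACGTG, which begins 18 bases before the start, Glb1 holds 1 that begins 50 bases before it, and Gla holds 1 at 196 bases and a further CACGTG upstream. Hexa and Smpd1 hold 1 and 2 cores and 0 copies of CACGTG. Searched on both strands over the same 250 bases, GTCACGTG occurred before Arsa, Ctsa, Ctsd, Gla, Glb1, Lamp1, Naglu and Sgsh, in 8 of the 32 promoters of these genes (25%) and in 1.85% of all 32851 promoters in the table. CACGTG alone, which lies within it, occurred in 31.2% and 6.02%, the full CLEAR element (GTCACGTG followed by AC) in 0 of 32 and 0.24%, and the short core GTCA in 93.8% and 80.2%. Genes with and without GTCACGTG differed by medians of 0.08 (8 genes, 6 above 0) and 0.03 (22 genes, 12 above 0). These are matches of letters and not sites shown to be bound.

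Of the 7 enzymes that take glycosaminoglycans apart, 0 passed the adjusted threshold or an unadjusted p under 0.05 (limma), and the groups of all 7 overlapped. Gusb, beta-glucuronidase, read 5.46, 6.27 and 5.57 in wild type and 6.00, 6.07 and 5.88 in transgenic testis (difference 0.22, SE 0.19). Here wild type replicate 2 was the highest of all 6 arrays, and without it the difference was 0.47 (limma adjusted p = 0.0732). Naglu, an enzyme of heparan sulfate breakdown, read 7.84, 8.19 and 8.0 against 8.22, 8.23 and 7.96 (difference 0.13, SE 0.12). Sgsh, the sulfamidase of the same route, read 7.22, 6.63 and 7.11 against 7.21, 7.05 and 7.28 (difference 0.19, SE 0.15, limma adjusted p = 0.929). In this case wild type replicate 2 was the lowest array, and without it the difference was 0.02. Ids, iduronate sulfatase, read 7.76, 7.59 and 7.35 against 7.69, 7.51 and 7.61 (difference 0.04, SE 0.12). Arsb, Idua and Galns, which act on dermatan, heparan and keratan sulfate chains, differed by 0.07, -0.04 and 0.06. Without wild type replicate 2 the groups of Gusb and Arsb (0.22) were separated upward.

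The 5 enzymes of glycoprotein and glycogen breakdown had overlapping groups as well. Manba, beta-mannosidase, read 6.01, 6.45 and 6.32 in wild type and 6.63, 6.41 and 6.33 in transgenic testis (difference 0.20, SE 0.13, 95% interval -0.10 to 0.50, limma adjusted p = 0.899), and without wild type replicate 2 the difference was 0.29 with groups separated upward. Fuca1, alpha-fucosidase, read 10.12, 10.54 and 10.32 against 10.43, 10.47 and 10.30 (difference 0.07, SE 0.12). Man2b1, the major lysosomal alpha-mannosidase, read 8.26, 8.55 and 8.26 against 8.34, 8.40 and 8.25 (difference -0.03, SE 0.11). In Fuca1 and Man2b1 the highest of the 6 arrays was wild type replicate 2. Gaa, acid alpha-glucosidase of glycogen, and Aga, which cuts the sugar-asparagine bond, differed by -0.03 and 0.04.

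Among the 8 proteases and peptidases, cathepsins K and S had separated groups. Ctsk, the collagen-cleaving cathepsin K, read 5.76, 5.88 and 5.75 in wild type and 6.08, 6.20 and 6.09 in transgenic testis (difference 0.33, SE 0.09, 95% interval 0.12 to 0.53, limma adjusted p = 0.31). It had the smallest p of the 35 genes, at a low intensity. Ctss, cathepsin S of antigen-presenting cells, read 6.77, 7.07 and 7.25 against 7.31, 7.31 and 7.28 (difference 0.27, SE 0.12, limma adjusted p = 0.759). The transgenic arrays were nearly equal and sat just above wild type replicate 3. Ctsl, cathepsin L, which Sertoli cells make in quantity, read 11.65, 11.73 and 11.66 against 11.65, 11.52 and 11.69 (difference -0.06, SE 0.09, 95% interval -0.26 to 0.14). Ctsb, cathepsin B, read 8.95, 9.14 and 9.03 against 9.17, 9.0 and 9.05 (difference 0.03, SE 0.10), so neither abundant cathepsin separated the genotypes. Ctsh, an aminopeptidase, differed by 0.27 with overlapping groups (limma adjusted p = 0.796), and without wild type replicate 2 by 0.40 with groups separated upward (limma adjusted p = 0.172). Ctsd, the aspartic protease, differed by 0.06. Ctsa, the carboxypeptidase that protects Glb1 and Neu1, and Tpp1, tripeptidyl peptidase, differed by -0.21 and -0.15 (limma adjusted p = 0.798 and 0.915).

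Markers of other cell types are given beside these values. Of 11 macrophage marker genes measured, for a cell rich in lysosomes, 10 were above 0, 0 passed the adjusted threshold, 4 reached an unadjusted p under 0.05 (Csf1r, C1qc, Cd163 and Lyz2), and these same 4 had groups separated upward, 36.4% against 7.48% and 6.83% of all genes. Lyz2, lysozyme of myeloid cells, read 7.65, 7.85 and 7.94 in wild type and 8.17, 8.14 and 8.20 in transgenic testis (difference 0.36, SE 0.10, limma adjusted p = 0.331). C1qc, a complement chain that tissue macrophages make, read 6.53, 6.87 and 6.88 against 7.06, 7.05 and 7.03 (difference 0.29, limma adjusted p = 0.659). The summed linear intensity of the 11 markers was 1333 to 1505 on the wild-type and 1599 to 1700 on the transgenic arrays, and RMA gives no marker at 0. In whole testis, a change in the number of cells of a type and a change in RNA per cell cannot be told apart.

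Among 12 Sertoli cell markers, 1 passed and 5 were above 0. Cst9, a cystatin-family gene of Sertoli cells, read 10.09, 10.48 and 10.36 in wild type and fell to 7.95, 8.03 and 7.90 in transgenic testis (difference -2.35, SE 0.11, limma adjusted p = 4.85e-05). Sox9 and Gata4 differed by -0.01 and 0.03 with overlapping groups. Fshr differed by 0.20 (limma adjusted p = 0.78) and was the only marker of this list with groups separated upward, as Cst9 was the only 1 downward. Aard, Rhox5 and Amh differed by -0.23, -0.17 and 0.18 with overlapping groups. The summed intensity of the 12 was 13071 to 13916 on the wild-type and 11917 to 12523 on the transgenic arrays, and without Cst9 the sums overlapped, at 11981 to 12488 and 11678 to 12261. Among 6 Leydig cell markers, 5 were above 0 and Hsd3b1, a steroid dehydrogenase, rose from 8.20, 8.64 and 8.30 to 9.97, 9.87 and 9.75 (difference 1.48, SE 0.13, limma adjusted p = 0.00109). Their sum was 4670 to 5469 and 5661 to 6467, and without Hsd3b1 the sums overlapped, at 4354 to 5070 and 4800 to 5464. Cyp11a1, Cyp17a1 and Star, enzymes and carrier of Leydig steroid synthesis, differed by -0.06, 0.03 and 0.01. Hsd17b3 read 7.76, 8.49 and 8.18 against 9.22, 9.25 and 8.69 (difference 0.91, SE 0.20, limma adjusted p = 0.146). Its groups were separated upward, as were those of Hsd11b1 (difference 0.21), so 3 of the 6 were, against 6.83% of all genes. Without wild type replicate 2, Hsd17b3 differed by 1.08 and passed (limma adjusted p = 0.0233). Among 9 spermatocyte markers 8 were below 0 and 0 passed. Groups were separated downward in 3 (33.3% against 5.65% of all genes) and upward in 1 (11.1% against 6.83%). That 1 was Mybl1, of smallest p, at 7.78, 8.13 and 7.69 against 8.78, 8.50 and 8.45 (difference 0.71, SE 0.14, limma adjusted p = 0.0852). Without wild type replicate 2, Mybl1 differed by 0.84 and passed (limma adjusted p = 0.00852). Meiob differed by -0.58 (limma adjusted p = 0.303). The sums were 5851 to 6044 in wild type and 5081 to 5454 in transgenic testis. Endothelial markers were above 0 in 6 of 7 and adipocyte markers in 4 of 4, against 56.7% of all genes. Of the endothelial markers, 3 reached an unadjusted p under 0.05 (limma) and 3 were separated upward (42.9% against 7.48% and 6.83%). A further 1 was separated downward (14.3% against 5.65%). Of the adipocyte markers, 0 reached that p and 1 was separated upward (25%). The sums of these 2 lists did not overlap either (536 to 554 against 567 to 575, and 401 to 416 against 425 to 481). The last 2 sums overlapped when single genes were left out, Pecam1 or Cldn5 for endothelium and Adipoq, Fabp4 or Retn for adipocytes. The sums overlapped for myoid cells, spermatogonia, round and elongating spermatids, epididymis and red blood cells, and 0 of their markers passed. Of 8 round spermatid markers, 6 were below 0 and 3 (37.5%) were separated downward. Groups were separated upward in 1 spermatogonia and 1 elongating spermatid marker (14.3% and 12.5%). Rnase10 of the epididymis list was separated downward at a dim level (difference -0.60, SE 0.11, limma adjusted p = 0.0647). Without wild type replicate 2 it differed by -0.675 and passed (limma adjusted p = 0.0191), where 1.25% of all genes did. The part of these cells in the values of the lysosomal genes was not tested.

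Proteins of lipid hydrolysis, cholesterol export and the lysosomal membrane lay close to 0. Ppt1, a thioesterase that strips palmitate from proteins, read 10.58, 10.71 and 10.65 in wild type and 10.54, 10.56 and 10.64 in transgenic testis (difference -0.07, SE 0.09, 95% interval -0.26 to 0.13, limma adjusted p = 0.968). Npc2, the soluble cholesterol carrier, read 9.92, 9.97 and 9.84 against 10.08, 9.64 and 10.06 (difference 0.02, SE 0.13). Lamp1, a major glycoprotein of the lysosomal membrane, read 11.19 on each wild-type array and 11.22, 11.03 and 11.17 on the transgenic ones (difference -0.05, SE 0.09). Lamp2, its relative with a part in autophagy, read 7.64, 8.31 and 7.88 against 8.11, 8.09 and 7.96 (difference 0.11, SE 0.16), and its highest value was that of wild type replicate 2, without which the difference was 0.29 with groups separated upward. Lipa, acid lipase, and Npc1, the membrane cholesterol exporter, differed by -0.05 and 0.04. The groups of all 6 genes overlapped on the full set of arrays, and those of Lipa were separated downward (-0.08) and Npc1 differed by -0.02 without wild type replicate 2.

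Wild type replicate 2 lay above the mean of the other wild-type arrays in 26 of the 36 genes (72.2%), by a median of 0.11, against 56.2% and a median of 0.035 over all genes. It was the highest wild-type array in 22 of the 36, and in 8593 of all 18193 genes. Leaving it out moved the median difference of the 36 genes from 0.045 to 0.063, against 0.023 for all genes.

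The 36 genes had 82 probe sets, 12 genes having 1 and 24 several. Of the 79 probe sets outside Galc, 0 passed the adjusted threshold (where 0.444% of all 45037 did, 0.171% higher and 0.273% lower). An unadjusted p under 0.05 (limma) was reached by 5, and 10 had groups that did not overlap, 8 upward and 2 downward, against 11.3% of all probe sets. Shares of all probe sets for the unadjusted p and for each direction are not given here. At the brightest probe set, 7.48% of all genes reached that p, 6.83% were separated upward and 5.65% downward. The 2 downward probe sets of the 79 were 1417492_at of Ctsb, at 6.42, 6.53 and 6.50 against 6.13, 6.16 and 6.27, and 1418248_at of Gla, at 5.24, 5.30 and 5.28 against 5.16, 5.18 and 5.10. Each is a dimmer probe set of a gene whose brightest one overlapped. In 12 of the 24 genes with several probe sets all differences had the same sign, and Galc was one of them. No probe set outside Galc reached a 2-fold difference, and the largest was 0.33.

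Lists of other genes that serve the lysosome held 125 genes, of which 116 were measured. Of these 0 passed the adjusted threshold (limma), 9 reached an unadjusted p under 0.05, 7 higher and 2 lower, or 7.76% against 7.48% of all genes, which is near the background. Groups were separated upward in 12 (10.3% against 6.83%) and downward in 5 (4.31% against 5.65%). Among 17 other hydrolases, 16 were above 0 with a median of 0.12, and Hgsnat, which acetylates heparan sulfate ends, read 7.11, 7.54 and 7.26 against 7.84, 7.65 and 7.76 (difference 0.45, SE 0.12, limma adjusted p = 0.309). Ctsf, cathepsin F, differed by 0.25 (limma adjusted p = 0.752). Among 22 other membrane proteins (median 0.03), Tmem175, a lysosomal potassium and proton channel, read 8.97, 9.14 and 9.01 against 9.39, 9.41 and 9.43 (difference 0.37, SE 0.09, limma adjusted p = 0.196), and Tmem192 differed by 0.35 (limma adjusted p = 0.82). Tmem175 had the smallest p of the 116, and its transgenic arrays stood clear of all wild-type ones.

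Proton pump subunits, which acidify the lysosome, had a median of 0.06 over 23 genes. Of these 15 were above 0 and 8 below, with differences from -0.52 to 0.41. Groups were separated upward in 3 and downward in 0. Atp6v1g1 read 11.08, 11.06 and 11.07 in wild type and 11.29, 11.34 and 11.35 in transgenic testis (difference 0.26, SE 0.08, limma adjusted p = 0.463), a narrow separation within tight groups. Atp6v0e2 differed by 0.41 (limma adjusted p = 0.341). Of 27 genes for tagging, sorting and delivery of the enzymes (median 0.02), Ap1g1, the gamma subunit of the adaptor that loads them at the trans-Golgi, read 7.84, 8.31 and 8.17 against 8.68, 8.54 and 8.59 (difference 0.50, SE 0.13, limma adjusted p = 0.239), and Vps35 of the retromer differed by -0.20 (limma adjusted p = 0.768). Of 13 regulators of the lysosome (median 0.03), the 2 genes of smallest p were Rragd, a GTPase that recruits a growth kinase, with a difference of -0.30, and Mtor, that kinase itself, with -0.20, neither past the threshold (limma adjusted p = 0.72 and 0.729).

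Genes that make ceramide and galactolipids, the substrates upstream of Galc, had a median of 0.11 over 14 genes, and 0 passed (limma). Ugt8a, which adds the galactose that Galc removes, read 5.25, 5.76 and 5.20 in wild type and 5.48, 5.48 and 5.69 in transgenic testis (difference 0.15, SE 0.15, limma adjusted p = 0.956). Gal3st1, which adds the sulfate that Arsa removes, read 6.08, 6.36 and 5.99 against 6.12, 6.36 and 6.56 (difference 0.20, SE 0.14, limma adjusted p = 0.902). Both had overlapping groups, and both were picked for their place beside Galc after their values were available. The overlap rests on wild type replicate 2, without which both were separated upward, by 0.325 and 0.312. Without that array 8 of the 14 genes were separated upward, against 16.9% of all genes. Ugcg, which makes glucosylceramide instead, read 6.04, 6.47 and 6.12 against 6.58, 6.62 and 6.63 (difference 0.40, SE 0.12, limma adjusted p = 0.389), and Sptlc2, of the first step of sphingolipid synthesis, differed by 0.14. Without wild type replicate 2, Ugcg (0.53), Hgsnat (0.57) and Ap1g1 (0.60) passed limma's adjusted threshold (adjusted p = 0.0285, 0.0354 and 0.0468). They were the only 3 of the 116 to do so, where 1.25% of all genes passed without that array and 0.616% with all 6.

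The 8 measured genes nearest to Galc on each side of chromosome 12, in RefSeq gene order, are shown for comparison. Of these 16 genes 0 passed (limma, 0.616% of all genes), 3 (18.8%) reached an unadjusted p under 0.05, against 7.48% of all genes, and their differences ran from -0.44 to 0.33 with a median of -0.005. Over their 37 probe sets 0 passed. Kcnk10, a potassium channel gene that lies next but one to Galc, read 6.51, 6.42 and 6.34 in wild type and 6.07, 5.90 and 5.98 in transgenic testis (difference -0.44, SE 0.09, limma adjusted p = 0.122). At the brightest probe set and over all 6 arrays it was the only neighbour of the 16 with groups separated downward, where 5.65% of all genes were. Its difference was larger in size than that of Galc at its own brightest probe set (-0.31). The other Kcnk10 probe set differed by 0.42, in the opposite direction. Gpr65, directly beside Galc, read 4.24, 4.39 and 4.06 against 4.07, 4.04 and 4.2 (difference -0.13, limma adjusted p = 0.934), at a dim level. On the other side 1700019M22Rik, directly beside Galc, differed by -0.14 with overlapping groups (limma adjusted p = 0.899). Flrt2, next but one on that side, was the only neighbour of the 16 with groups separated upward over all 6 arrays, by 0.23 (limma adjusted p = 0.717). Over all genes 6.83% were separated upward. Ttc8 had the largest upward difference, 0.33, with overlapping groups (limma adjusted p = 0.685). Without wild type replicate 2, 1700019M22Rik (-0.17), Ston2 and Eml5 were also separated downward, and Ttc8 (0.47) and 4930474N09Rik upward. Over all genes 11.8% were then separated downward and 16.9% upward.

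**Figure D4:**
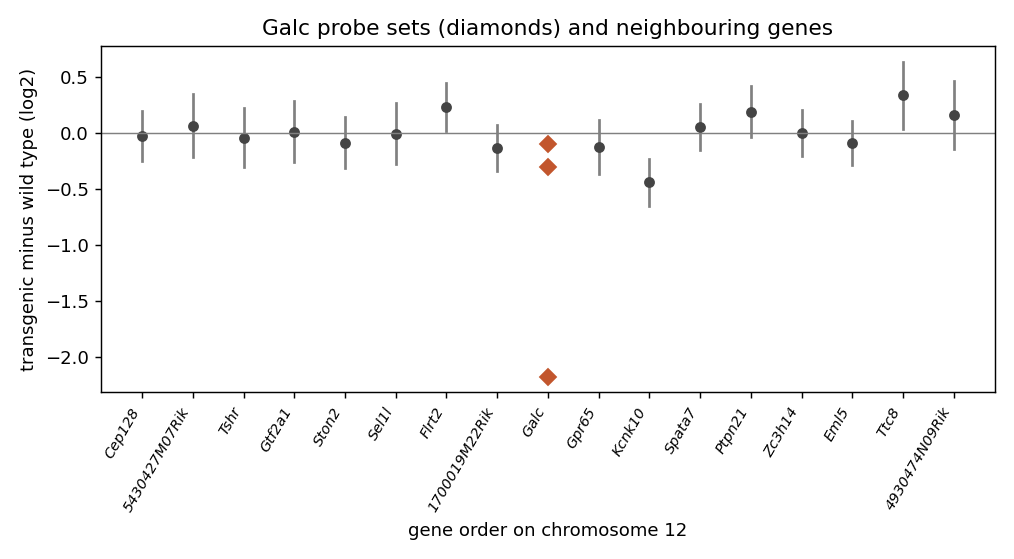
Transgenic minus wild type on the log2 scale for the 8 measured genes on each side of Galc in their order on chromosome 12, at the brightest probe set, with limma's 95% interval as a line, and for the 3 Galc probe sets as diamonds. The neighbours lie between -0.44 and 0.33, and the lowest diamond, 1452907_at, lies at -2.18.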

How the data were processed

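Total RNA of whole adult testis (4 µg per array, per the labels) was hybridised to 6 Affymetrix mouse arrays. Per the submitters' processing notes the authors used RMA and the affy package, with versions not given in the sources used here. The table deposited by the authors holds a log2 intensity for each probe set. Because RMA equalises the arrays, it hides any shift common to all transcripts, and it makes no call of detection. No genome build was stated, so coordinates are printed only for RefSeq's promoters, and the order of genes beside Galc is that of the same RefSeq assembly.

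Probe sets were named from the platform annotation, with symbols updated through a RefSeq table of GRCm38.p6. Of 45037 probe sets without the 64 controls, 34945 carry 1 gene, 932 several and 9160 are unnamed here. The test of genotype was a two-sided limma fit (limma 3.58.1, R 4.3.3), with Benjamini-Hochberg adjustment over all 45037 and no filter. The fit was tested on simulated data. Errors marked SD are over 3 arrays, which the submitters call independent biological replicates, and their number limits the precision. Those marked SE are limma's standard errors of the difference, for which variance information is shared over all probe sets.

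The members and lists were chosen with earlier results of these data known. Named genes were, in each role, the one of smallest p, the 2 brightest and those with separated groups, and in other lists those called or else the 2 of smallest p. Ugt8a, Gal3st1, Gusb, the named neighbours of Galc and the dimmer probe sets were named after their values were seen. Marker genes did not keep to the rule. Csf1r, Cd163, Sox9, Gata4, Fshr, Amh, Aard, Rhox5, Prm1 and Tnp1 were named outside it. So were Cyp11a1, Cyp17a1, Star, Hsd17b3, Hsd11b1, Pecam1, Cldn5, Adipoq and Fabp4, all with their values available. In several marker lists the genes it would name are left out. The members given by their difference alone complete the list. The 12 marker lists are reported by counts and summed intensity.

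Alternatives were a filter on dim probe sets, other normalizations, eBayes with trend and robust options, weights per array, a block for replicate number, the Gapdh control difference as a covariate, each array left out, a looser threshold and other probe set choices.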

Additional observations from a re-analysis of the deposited data

How the results depend on the processing

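The count of 0 among the 35 genes outside Galc was the same under every alternative run except array weights, which gave 6, with weights that did not converge. Over all probe sets the count of 200 became 306 with trend and robust eBayes, 4160 with array weights, 317 at an adjusted p under 0.1 and 18 with the Gapdh covariate, and ran from 70 to 429 with 1 array left out, with 429 when wild type replicate 2 was left out, 70 when it was wild type replicate 3, and 71, 75 and 73 when it was transgenic replicate 1, 2 or 3. With the replicate number as a block it was 117. The numbers did not pair the arrays (correlations of deviations -0.32, -0.07 and -0.01), and the block changed no call of the 35. The median difference stayed above 0, from 0.022 with median centring to 0.168 with the Gapdh covariate. Galc at 1452907_at ran from -2.27 to -2.05 with 1 array left out and was -1.84 with the Gapdh covariate, where 1449900_at was -0.0268. The 7 genes separated upward became 12 without wild type replicate 2. None of the named genes whose sign turned was called. With the Gapdh covariate these were Ids (-0.0225), Sgsh (-0.25), Man2b1 (0.24), Psap (0.18) and Rragd (0.10). They were Man2b1 (0.0666) and Psap (0.12) with array weights, and Npc2 (-0.0067) with median centring. With 1 array left out, the sign turned for 16 of the 36 genes, Gla, Neu1, Gm2a, Arsb, Idua, Aga, Ctsd and Npc1 among them (a check added after the data were seen). For the other 8 the differences ran from -0.0717 to 0.133 for Ids, -0.075 to 0.07 for Man2b1, -0.03 to 0.18 for Fuca1, -0.015 to 0.0833 for Ctsb, -0.06 to 0.16 for Npc2, -0.09 to 0.005 for Lamp1, -0.0417 to 0.293 for Lamp2 and -0.162 to 0.0583 for Psap. The causes were not tested. RMA gives no signal over background, so dim readings such as 1449900_at and the transgenic values of 1452907_at are not shown to lie above background.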
